A study of Mus musculus with 4 samples.

Results

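The genes described here copy the genome or prepare the cell to copy it: the DNA replication and G1/S genes. They were chosen by name from a list of 39 genes, covering origin licensing, the replicative helicase, the DNA polymerases, the sliding clamp, deoxynucleotide synthesis, the regulators of entry into S phase and the assembly of new chromatin. Of the 39, 38 had a probe matched through its RefSeq accession and all 38 were bright enough to test, among 12393 named genes tested in all. Rrm2, the small subunit of ribonucleotide reductase, had no probe matched in this way and was not analysed here. The 38 genes were read by 47 probes.

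The RNA came from microvascular smooth muscle cells of male C57BL6 mice that lack Rap1a, a small GTPase of the Ras family. At plating the cells were exposed overnight, without serum, to a shuttle vector that was either empty or carried an insert the labels call RapCA and do not spell out. They then recovered for 48 h in 0.5% serum and were grown in 10% serum. On each of 4 2-colour Agilent arrays, numbered replicates 1 to 4, RNA of the empty-vector cells was labelled with Cy5 and RNA of the RapCA cells with Cy3. Both sides of every comparison therefore carried the Rap1a knockout, and the series title describes the pair as knockout against rescue. The labels do not say whether the 4 arrays came from separate cultures, so a p-value measures only the spread between these arrays, which may be technical. The dyes were never swapped, so dye and condition cannot be told apart.

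Each value is the log2 ratio of the Cy3 signal (the RapCA channel, by its label) to the Cy5 signal (the vector channel), so a negative value means less signal in the RapCA channel. A gene was called where limma's moderated test against a ratio of 0 gave a Benjamini-Hochberg adjusted p below 0.05 over all 23497 probes tested, and a gene with several probes was read by its brightest. The targeted gene went against the labels. Rap1a gave log2 ratios of -0.46, -1.03, -1.31 and -1.47 on replicates 1 to 4, a mean of -1.07 ± 0.44 (SD, n = 4 arrays, adjusted p = 0.00204), which is less signal in the channel labelled as rescued. Whether this probe reads the introduced copy or what the knockout allele still transcribes was not tested. Every direction given here rests on the channel labels alone.

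Replicate 1 stood apart from the rest. Over 23485 probes the correlation of its ratios with any other array was 0.686 to 0.778, against 0.931 to 0.976 among replicates 2 to 4. In its vector channel 51.3% of probes were well above background, against 60.1% to 61.9% in that channel of the other arrays, while the RapCA channels lay between 57.7% and 62.9%. Where leaving out replicate 1 changed the call of a probe of the set, the value without it is given. For values that moved without a change of call it is given for some genes only. RNA of whole cultures was measured, so fewer cells in S phase and less RNA of these genes per cell cannot be told apart.

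As background, a dividing cell licenses its replication origins in G1, when the origin recognition complex together with Cdc6 and Cdt1 loads the MCM ring onto DNA. On entry into S phase, cyclin E with Cdk2 and other kinases switches the loaded rings into active helicases with the help of Cdc45, the GINS complex and Mcm10, and the polymerases then copy the strands with the PCNA clamp. Many of these genes are transcribed in a wave at the boundary of G1 and S by E2F factors, which the RB protein holds back in resting cells, and vascular smooth muscle cells switch the same program on when they leave quiescence and divide.

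Nearly the whole set was lower in the RapCA channel. Of the 38 genes, 35 were called lower, 0 were called higher and 3 were not called, namely Mcm4, Pole and Dut. Among all 12393 genes tested, 3089 were called lower (24.9%) and 3585 were called higher (28.9%). The median log2 ratio of the 38 genes was -1.22, and the genes ran from -2.55 for Cdc6 to -0.24 for Dut, where the median of all genes was 0.02. At least 2-fold lower calls numbered 27 of the 38, against 7.47% of all genes. By probe, 43 of the 47 were called lower and 4 were not called. All 38 means were below 0, and 34 of the genes were below 0 on every array. Among all 12393 genes, 6030 had a mean below 0 and 3644 were below 0 on every array.

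The direction was shared by the arrays. The median of the 38 genes was -1.18 on replicate 1, -1.08 on replicate 2, -1.39 on replicate 3 and -1.52 on replicate 4. On replicates 2 to 4 all 38 genes were below 0, and on replicate 1 it was 34. Of all genes, 47.4%, 48.4%, 48.7% and 47.8% were below 0 on replicates 1 to 4. Genes at a log2 ratio of -1 or less numbered 26, 23, 32 and 32 on replicates 1 to 4, against 7.81%, 6.85%, 8.57% and 11.4% of all genes. Fitted without replicate 1, all 38 genes were called lower, 29 of them at least 2-fold, and the share of all genes called lower was 34.0%. In 33 of the 38 genes the vector levels of all 4 arrays lay above all 4 RapCA levels, an arrangement seen in 20.7% of all genes, and the levels overlapped in Mcm4, Mcm6, Pole, Prim1 and Dut.

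**Figure D1:**
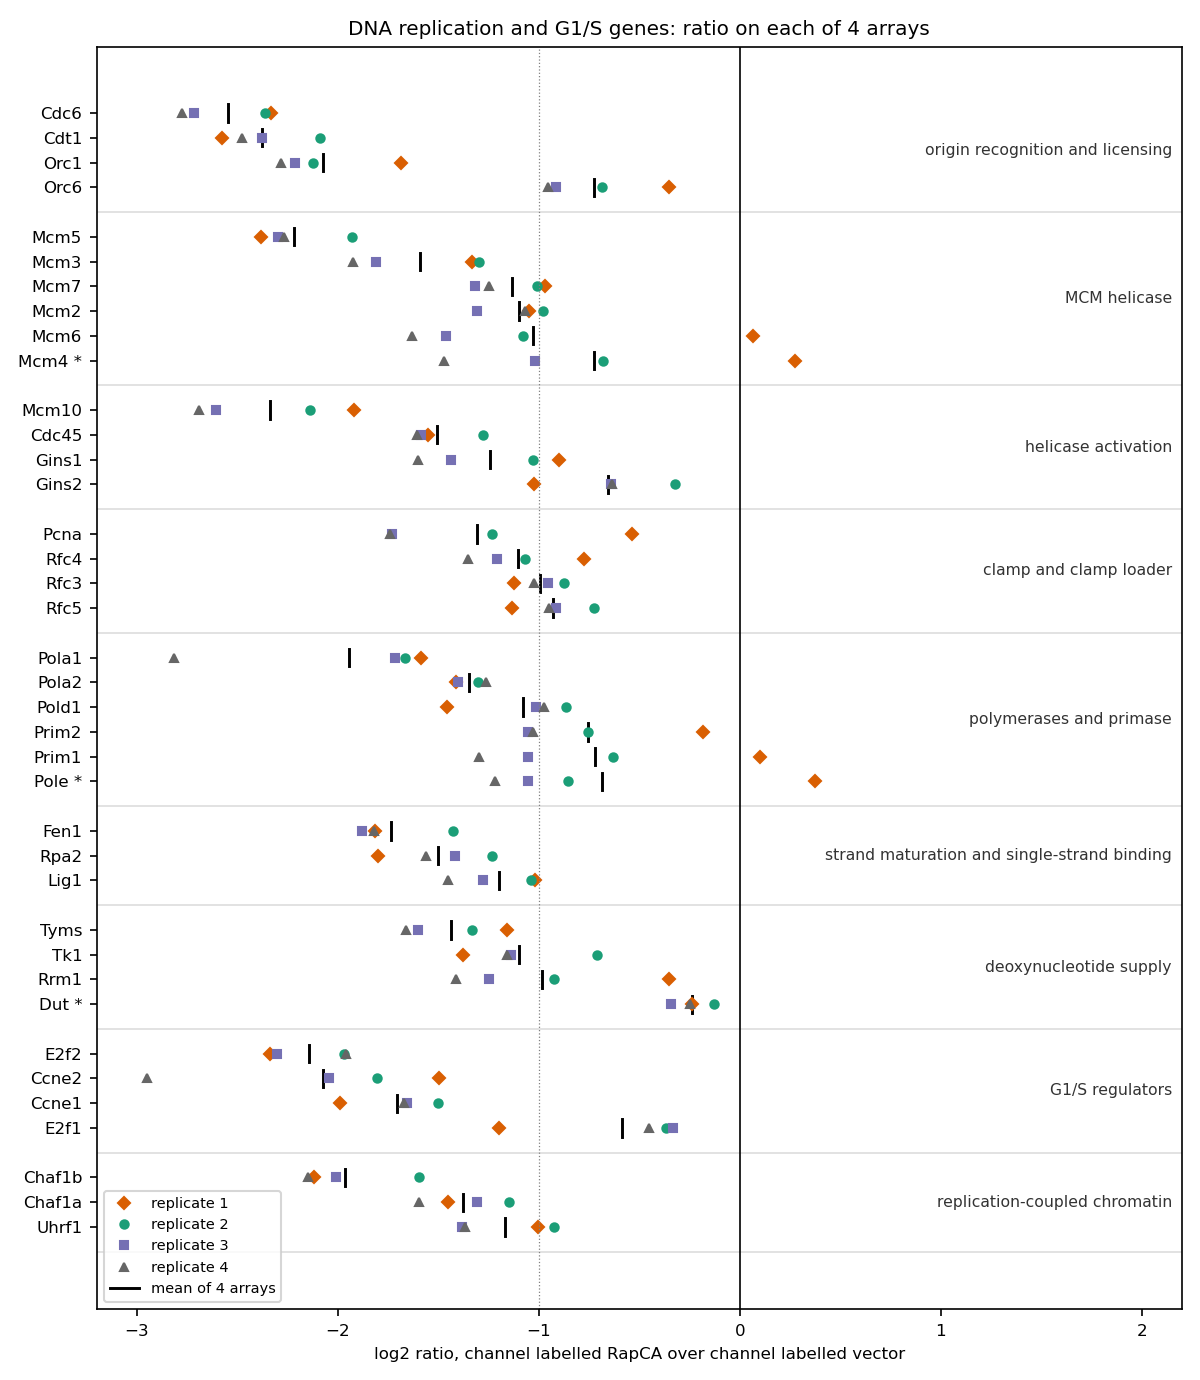
Log2 ratio of the RapCA channel over the vector channel for the 38 genes with a probe, grouped by role, with 1 point per array and a black tick at the mean of 4 arrays. A dotted line marks a ratio of -1 and an asterisk marks the 3 genes not called (Mcm4, Pole and Dut); the means run from -2.55 for Cdc6 to -0.24 for Dut, and replicate 1 lies above 0 for Mcm4, Mcm6, Pole and Prim1.

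The genes of origin recognition and licensing included the lowest of the set. All 4 were called lower, 3 of them at least 2-fold, with a median of -2.23. Cdc6, the ATPase that joins the origin complex to load MCM rings, had vector levels of 10.53, 10.43, 10.55 and 10.54 on replicates 1 to 4 and RapCA levels of 8.20, 8.07, 7.83 and 7.77, in log2 intensity. The vector channel was nearly constant over the arrays and every RapCA value lay more than 2 log2 units beneath it. The ratio was -2.55 ± 0.23 (SD, n = 4, adjusted p = 2.09e-05), which is 5.85-fold more signal in the vector channel, while its second probe gave a smaller difference of -1.48 ± 0.33. Cdt1, the partner of Cdc6 in loading, had vector levels of 14.68, 14.00, 14.15 and 14.27 and RapCA levels of 12.10, 11.91, 11.77 and 11.80. Here too the channels were far apart on every array, with replicate 1 the brightest in both. The Cdt1 ratio was -2.38 ± 0.21 (adjusted p = 2.25e-05), or 5.2-fold.

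The origin recognition complex itself was split in size. Orc1, the subunit that comes and goes with the cell cycle, had vector levels of 8.87, 9.38, 9.40 and 9.37 and RapCA levels of 7.19, 7.26, 7.19 and 7.09. The RapCA channel was flat over the arrays, and replicate 1 was the lowest in the vector channel. Its ratio was -2.08 ± 0.27 (adjusted p = 4.45e-05), or 4.22-fold, and -2.82 by the authors' deposited ratios. Orc6, the smallest subunit, differed less, with ratios of -0.35, -0.69, -0.92 and -0.96 on replicates 1 to 4 and a mean of -0.73 ± 0.28 (adjusted p = 0.00318).

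Promoter sequences are shown for 4 strongly reduced genes that were picked because they hold a match to the E2F consensus before the start. Mcm10 and Chaf1b, which were reduced as strongly as some of these, hold no match in their windows and are not shown. They come from RefSeq on GRCm38.p6, cover the 250 bases before the annotated start, and are written 5′ to 3′ in the direction of transcription. Capitals mark a match to the E2F consensus, which was searched on both strands as TTTCCCGC, TTTCGCGC, TTTGCCGC or TTTGGCGC. Cdc6 lies at chr11:98907901-98908150 on the plus strand, Orc1 at chr4:108579204-108579453 on the plus strand, Mcm5 at chr8:75109259-75109508 on the plus strand and Pola1 at chrX:93632156-93632405 on the minus strand.
Cdc6: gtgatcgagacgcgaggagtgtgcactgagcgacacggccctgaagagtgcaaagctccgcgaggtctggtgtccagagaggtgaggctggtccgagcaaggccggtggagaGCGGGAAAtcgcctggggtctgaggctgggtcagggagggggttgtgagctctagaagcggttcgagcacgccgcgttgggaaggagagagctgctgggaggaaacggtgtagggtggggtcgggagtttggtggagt
Orc1: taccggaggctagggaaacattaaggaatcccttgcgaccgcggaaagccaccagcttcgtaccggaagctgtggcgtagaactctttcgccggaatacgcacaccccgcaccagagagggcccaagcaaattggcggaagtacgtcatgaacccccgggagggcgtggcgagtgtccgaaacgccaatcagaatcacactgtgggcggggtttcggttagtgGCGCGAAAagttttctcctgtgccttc
Mcm5: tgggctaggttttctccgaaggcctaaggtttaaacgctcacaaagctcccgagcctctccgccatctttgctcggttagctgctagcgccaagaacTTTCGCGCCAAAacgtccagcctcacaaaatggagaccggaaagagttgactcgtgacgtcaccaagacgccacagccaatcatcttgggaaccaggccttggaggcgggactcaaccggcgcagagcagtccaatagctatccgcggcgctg
Pola1: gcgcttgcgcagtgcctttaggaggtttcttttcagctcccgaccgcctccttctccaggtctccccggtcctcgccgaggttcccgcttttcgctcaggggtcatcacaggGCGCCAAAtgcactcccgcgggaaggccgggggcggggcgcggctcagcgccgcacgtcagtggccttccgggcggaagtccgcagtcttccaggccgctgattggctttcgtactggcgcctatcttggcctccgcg
The Cdc6 and Pola1 matches begin 138 bases before the start and the Orc1 match 27 bases before it. In Mcm5 a pair of overlapping matches, 1 on each strand, begins 153 and 149 bases before the start. In Cdt1 and E2f2 the match lies after the start, 32 and 39 bases in, and is shown with its neighbouring bases, Cdt1 from chr8:122568037-122568064 and E2f2 from chr4:136172303-136172323, both on the plus strand.
Cdt1: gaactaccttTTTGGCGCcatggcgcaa
E2f2: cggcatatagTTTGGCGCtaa

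The MCM genes encode the subunits of the ring that unwinds DNA ahead of the fork. Of the 6, 5 were called lower, each at least 2-fold, and the median was -1.12. Mcm5 had the largest difference, with vector levels of 15.12, 14.43, 14.47 and 14.50 and RapCA levels of 12.73, 12.51, 12.17 and 12.23. The channels were well apart on all 4 arrays. Its ratio was -2.22 ± 0.20 (adjusted p = 2.55e-05), or 4.66-fold. Mcm3 stood at -1.59 ± 0.32 (adjusted p = 0.000155), and Mcm2 and Mcm7 lay close to each other at -1.10 ± 0.14 (adjusted p = 0.000208) and -1.14 ± 0.17 (adjusted p = 0.000219). The smallest difference of these 4 genes on any array was -0.97, for Mcm7 on replicate 1.

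The remaining subunits of the same ring, Mcm4 and Mcm6, turned on replicate 1. Mcm6 had vector levels of 14.43, 15.72, 15.87 and 15.85 and RapCA levels of 14.50, 14.64, 14.41 and 14.21. On replicate 1 the channels were level, since the vector channel was low there, and on the other arrays the vector channel was more than 1 log2 unit higher. Over all 4 arrays the Mcm6 ratio was -1.03 ± 0.77 (adjusted p = 0.0155), and without replicate 1 it was -1.39 (adjusted p = 9.18e-05). The Mcm6 call was lost without replicate 3, at -0.88 (adjusted p = 0.0542), and without replicate 4, at -0.83 (adjusted p = 0.0711). Mcm4 had vector levels of 12.99, 14.52, 14.57 and 14.55 and RapCA levels of 13.26, 13.83, 13.55 and 13.08. Replicate 1 ran the other way from the rest, again through a low vector channel. Its ratio was -0.72 ± 0.74 and was not called (adjusted p = 0.0508), while without replicate 1 it was -1.06 (adjusted p = 0.000826).

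The factors that turn loaded rings into moving helicases were all called lower, 3 of the 4 at least 2-fold, with a median of -1.37. Mcm10, which helps the rings to separate and start unwinding, had vector levels of 13.10, 13.38, 13.56 and 13.55 and RapCA levels of 11.19, 11.24, 10.95 and 10.86. No RapCA level came within 1 log2 unit of a vector level. The Mcm10 ratio was -2.34 ± 0.37 (adjusted p = 5.38e-05), or 5.06-fold. Cdc45, which travels with the ring at the fork, stood at -1.51 ± 0.15 (adjusted p = 6.69e-05). The GINS subunits differed in size: Gins1 was at -1.24 ± 0.33 (adjusted p = 0.000464; second probe -0.73 ± 0.20), and Gins2 was at -0.66 ± 0.29 (adjusted p = 0.00541), with its most negative value, -1.03, on replicate 1.

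The clamp and its loader were lower as well, with all 4 genes called, 2 at least 2-fold and a median of -1.05. Pcna, the sliding clamp that holds the polymerases on DNA and a common marker of dividing cells, had vector levels of 14.67, 15.53, 15.63 and 15.53 and RapCA levels of 14.13, 14.30, 13.90 and 13.78. The channels did not overlap, though on replicate 1 the gap was narrow and the vector channel was lowest. The Pcna ratio was -1.31 ± 0.57 (adjusted p = 0.00188), or 2.48-fold. The 3 loader subunits moved by similar amounts, Rfc4 by -1.10 ± 0.25, Rfc3 by -0.995 ± 0.106 and Rfc5 by -0.93 ± 0.17, with adjusted p-values of 0.000405, 0.000257 and 0.000475.

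**Figure D2:**
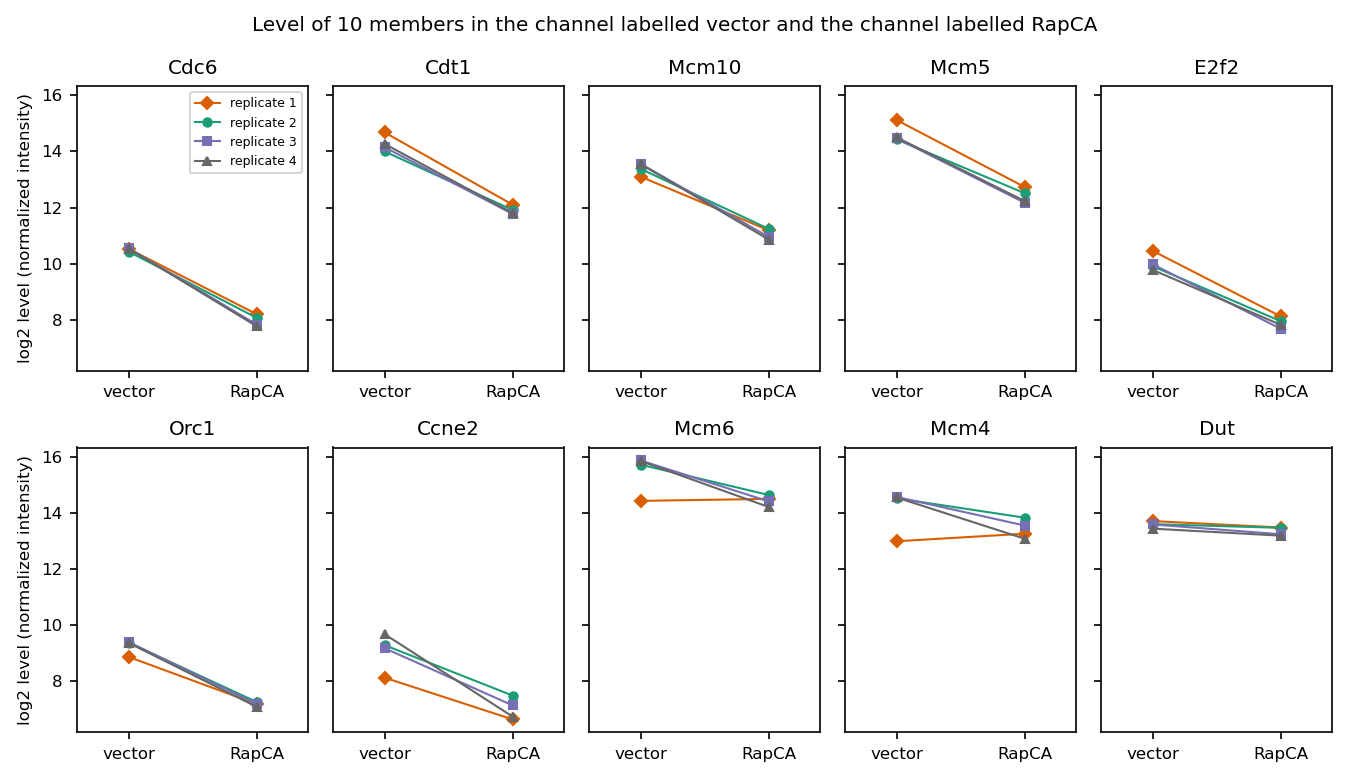
Normalized log2 intensity in the vector channel and the RapCA channel on each array for Cdc6, Cdt1, Mcm10, Mcm5, E2f2, Orc1, Ccne2, Mcm6, Mcm4 and Dut, with each array's 2 values joined. The first 7 genes have every vector value above every RapCA value, Mcm6 and Mcm4 join or cross on replicate 1, and the values of Dut overlap; levels of different genes come from different probes and are not comparable.

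Of the 6 polymerase and primase genes, 5 were called lower, 3 of them at least 2-fold, with a median of -0.92. Pola1, the catalytic subunit of the polymerase that starts each new strand, had vector levels of 10.24, 11.42, 11.24 and 11.33 and RapCA levels of 8.65, 9.76, 9.53 and 8.52. Replicate 1 was low in both channels and replicate 4 was low in the RapCA channel only. The Pola1 ratio was -1.95 ± 0.58 (adjusted p = 0.000358), or 3.86-fold. Pola2, its regulatory subunit, had the smallest spread of the 38 genes, with ratios of -1.41, -1.30, -1.40 and -1.26 and a mean of -1.35 ± 0.08 (adjusted p = 7.08e-05). The primase subunits bound to that polymerase were less reduced: Prim2 stood at -0.76 ± 0.41 (adjusted p = 0.00693) and Prim1, which makes the RNA primer, at -0.72 ± 0.61 (adjusted p = 0.0295). Prim1 was at 0.10 on replicate 1 and -0.63, -1.05 and -1.30 on the others, so its levels overlapped. Its call was lost when any of replicates 2, 3 or 4 was left out (adjusted p = 0.0713, 0.105 and 0.117), and without replicate 1 its mean was -0.99.

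The catalytic subunits of the main copying enzymes also differed in how they behaved on replicate 1. Pold1, of the polymerase best known for the lagging strand, had ratios of -1.46, -0.86, -1.01 and -0.97, a mean of -1.08 ± 0.26 (adjusted p = 0.000495). Replicate 1 was its most negative array. Pole, of the leading-strand polymerase, had vector levels of 11.36, 12.67, 12.70 and 12.75 and RapCA levels of 11.74, 11.82, 11.64 and 11.53. Replicate 1 was the only array on which its RapCA level was the higher. The Pole ratio was -0.69 ± 0.72 and was not called (adjusted p = 0.0563), and without replicate 1 it was -1.04 (adjusted p = 0.000112).

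All 3 genes that finish lagging-strand fragments or coat single-stranded DNA were called lower, each at least 2-fold, with a median of -1.50. Fen1, the nuclease that trims the flap between fragments, had vector levels of 12.13, 11.72, 11.82 and 11.75 and RapCA levels of 10.32, 10.29, 9.94 and 9.93. The channels stayed apart on all arrays. Its ratio was -1.74 ± 0.21 (adjusted p = 5.48e-05), or 3.33-fold. Rpa2, a subunit of the single-strand binding protein, was at -1.50 ± 0.24 (adjusted p = 0.000111), and Lig1, the ligase that seals the fragments, was at -1.20 ± 0.21 (adjusted p = 0.000218).

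Of the deoxynucleotide genes 4 were tested, 3 were called lower, 2 of them at least 2-fold, and the median was -1.04. Tyms, thymidylate synthase, had vector levels of 14.35, 14.53, 14.61 and 14.62 and RapCA levels of 13.19, 13.20, 13.01 and 12.96. The values within each channel lay close together. Its ratio was -1.44 ± 0.24 (adjusted p = 0.000128), and its second probe gave -1.45 ± 0.23. Tk1, the thymidine kinase of dividing cells, was at -1.10 ± 0.28 (adjusted p = 0.000528), and Rrm1, the large subunit of ribonucleotide reductase, was at -0.98 ± 0.47 (adjusted p = 0.0034), with its smallest difference, -0.35, on replicate 1. Dut, which removes dUTP, differed least of all the genes. Its brightest probe had ratios of -0.24, -0.13, -0.34 and -0.25, a mean of -0.24 ± 0.09 that was not called (adjusted p = 0.0752, and 0.0301 without replicate 1), while its second probe was called at -0.52 ± 0.14 (adjusted p = 0.00531). Both Dut probes were below 0 on all 4 arrays, and the disagreement was about size.

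All 4 regulators of G1/S were called lower, 3 at least 2-fold, with a median of -1.89. E2f2, an activating E2F factor, had vector levels of 10.46, 9.91, 9.98 and 9.78 and RapCA levels of 8.12, 7.95, 7.68 and 7.82. The gap was close to 2 log2 units on every array. Its ratio was -2.14 ± 0.21 (adjusted p = 2.78e-05), or 4.41-fold. Ccne2, the second E-type cyclin, had vector levels of 8.13, 9.29, 9.18 and 9.68 and RapCA levels of 6.64, 7.49, 7.14 and 6.74. It was the most variable of the 7 genes at least 4-fold lower, with replicate 4 farthest down, yet its channels did not overlap. The Ccne2 ratio was -2.07 ± 0.62 (adjusted p = 0.000354), or 4.21-fold. Ccne1, the first E-type cyclin, was steadier at -1.71 ± 0.21 (adjusted p = 5.68e-05), or 3.26-fold, with a second probe at -1.60 ± 0.28.

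E2f1, the other activating E2F of the set, did not give 1 answer. Its brightest probe had vector levels of 12.44, 11.38, 11.46 and 11.60 and RapCA levels of 11.24, 11.01, 11.12 and 11.14. The channels did not overlap, but much of the distance came from a bright vector channel on replicate 1. Its ratio was -0.59 ± 0.41 (adjusted p = 0.0203), and without replicate 1 it was -0.39 (adjusted p = 0.00329). The call was lost without replicate 4, at -0.63 (adjusted p = 0.0516). The second E2f1 probe had ratios of -0.41, 0.27, 0.27 and 0.27, a mean of 0.10 ± 0.34 that was not called (adjusted p = 0.594), and without replicate 1 it was called higher in the RapCA channel at 0.27 (adjusted p = 0.0122). The probes of E2f1 thus disagreed in sign on replicates 2 to 4. Of the 9 genes with a second probe, 7 had the same call on both, and Dut and E2f1 were the exceptions.

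The 3 genes that rebuild chromatin behind the fork were called lower, each at least 2-fold, with a median of -1.38. Chaf1b, a subunit of the chaperone that places new histones, had vector levels of 13.93, 13.39, 13.61 and 13.72 and RapCA levels of 11.81, 11.79, 11.60 and 11.57. The RapCA levels were tightly grouped and lay far under every vector level. Its ratio was -1.97 ± 0.26 (adjusted p = 4.95e-05), or 3.91-fold. Its partner Chaf1a was at -1.38 ± 0.19 (adjusted p = 0.000113). Uhrf1, which brings the maintenance DNA methyltransferase to newly copied DNA, was at -1.17 ± 0.24 (adjusted p = 0.000301), with a second probe at -1.16 ± 0.26.

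The deviation of replicate 1 could be placed by channel. Setting each gene's level on replicate 1 against its mean over the other arrays gave a median absolute deviation of 0.507 log2 units in the vector channel and 0.174 in the RapCA channel for the 38 genes, and 0.551 and 0.155 for all genes. In the vector channel 20 of the 38 deviated by more than 0.5, 11 of them downwards and 9 upwards, and in the RapCA channel Pola1 alone did, at -0.62. Of all 12393 genes, 6736 did so in the vector channel, 3296 downwards and 3440 upwards, and 572 in the RapCA channel. The set was therefore close to all genes in this. The most lowered on the replicate 1 vector channel were Mcm4 at -1.56, Mcm6 at -1.38, Pole at -1.34 and Ccne2 at -1.25, and the most raised were E2f1 at 0.96, Gins2 at 0.82 and Tk1 at 0.76. The 5 genes whose channels overlapped included 4 with a vector deviation of -1.06 or lower, namely Mcm4, Mcm6, Pole and Prim1. Ccne2 at -1.25 and Pola1 at -1.09 deviated as far, and their channels did not overlap. Whether the culture, the extract or the hybridisation of that channel differed was not tested.

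**Figure D3:**
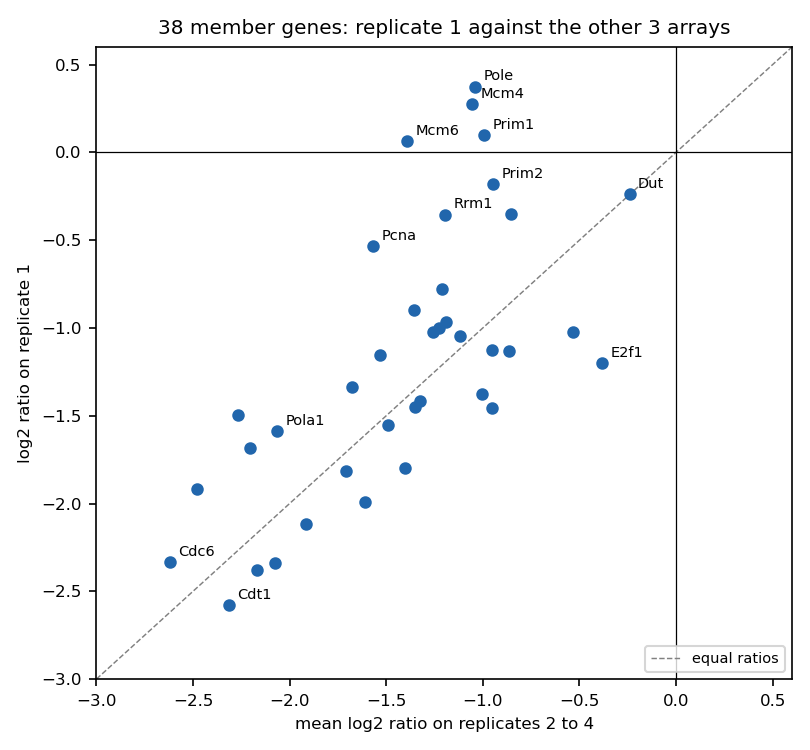
Log2 ratio on replicate 1 against the mean log2 ratio of replicates 2 to 4, with 1 point for each of the 38 genes and a dashed line of equality. Genes above the line, such as Mcm4, Mcm6, Pole and Prim1, were less reduced on replicate 1 than on the other arrays, and genes beneath it, such as E2f1 and Gins2, were more reduced there.

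Motif content of the promoters was described over windows of 300 bases, from 250 before to 50 after each RefSeq start on GRCm38.p6. Such windows were at hand for 33 of the 39 genes. A match to the E2F consensus lay in 13 of the 33 (39.4%), against 4.58% of 9927 genes tested with a window and 2.60% of all 27025 genes in the table. The 13 were Cdc6, Cdt1, E2f2, Lig1, Mcm3, Mcm5, Mcm6, Mcm7, Orc1, Pola1, Pold1, Rfc3 and Uhrf1, which is 13 of 39 windows (33.3%) against 2.26% of all 32851 windows of that length. Of the 19 matches, 11 lay within 100 bases of the start, which in these windows means from 100 before to 50 after it. Their placement was not compared with that in other genes. All 13 genes with a match were called lower, with a median of -1.59, as were 18 of the 19 tested genes with a window and no match, with a median of -1.31.

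Outside the set, 442 other tested genes held an E2F match, of which 34.6% were called lower and 22.2% higher, and 9453 held none, of which 24.2% were called lower and 28.9% higher. The medians were -0.17 and 0.02. A CCAAT box, the letters CCAAT on either strand, lay in 57.6% of the 33 genes against 42.9% of tested genes and 41.1% of all genes of the table. The CHR element of late cell cycle genes, searched on both strands as TTTGAA or TTCGAA, lay in 18.2% against 16.2% and 21.7%. Base composition was similar to that of tested genes, with a median GC content of 58.3% in the 33 genes and 60.7% in tested genes. All genes of the table had 52.7%. The median count of the letters CG in a window was 23, 20 and 7 in these groups, and every E2F pattern searched holds those letters. A match is a description of letters and says nothing of binding in these cells.

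**Figure D4:**
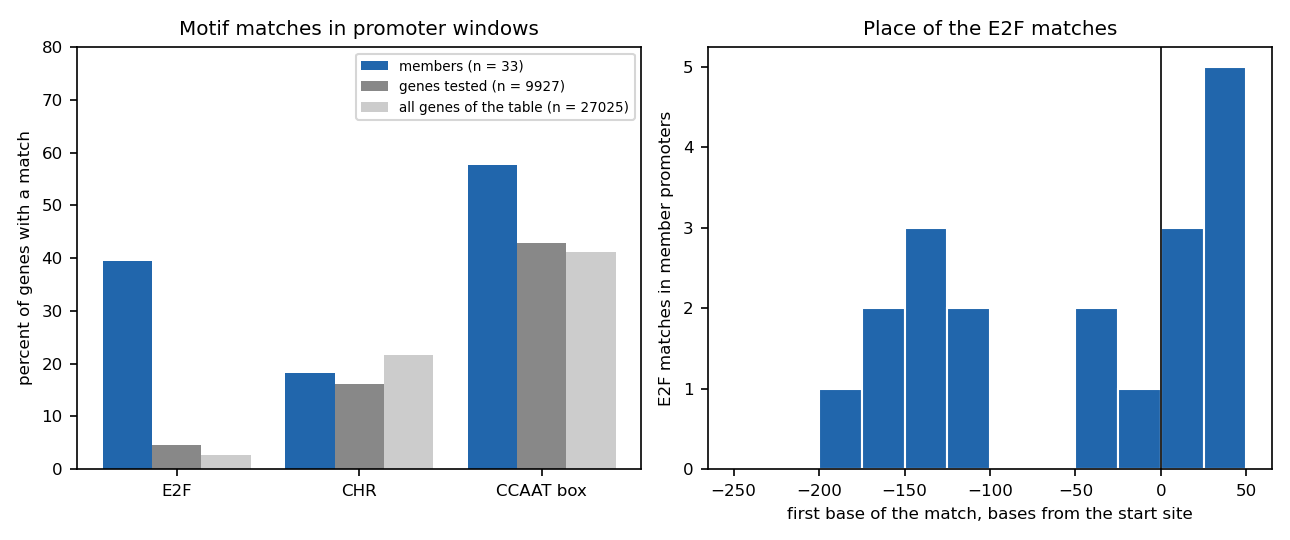
Percent of genes with an E2F, CHR or CCAAT match in the 300-base window among the 33 genes of the set with a window, all tested genes and all genes of the table, beside a histogram of where the 19 E2F matches begin relative to the start, in bases. E2F matches were held by 39.4%, 4.58% and 2.60% of the 3 groups. Of the 19, 11 lie within 100 bases of the start, in windows that end 50 bases after it.

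Other genes of the same machinery followed the set to differing degrees. Among 17 further subunits of the same complexes, 12 were called lower and 1 higher, with a median of -0.61. Those with the smallest adjusted p were Pold3 at -1.37 ± 0.26 (adjusted p = 0.000184), an accessory subunit of the lagging-strand polymerase, Pole2 at -1.20 ± 0.41 (0.000975), Orc2 at -1.21 ± 0.42 (0.00103) and Pole3 at -0.61 ± 0.11 (0.00218). The exception was Pold4, another subunit of the Pold1 polymerase, which was higher at 1.06 ± 0.46 (adjusted p = 0.00232). Among 24 other replication factors 21 were called lower and 0 higher, with a median of -0.92. They were led by Recql4, a helicase needed at origins, at -2.09 ± 0.17 (adjusted p = 2.55e-05), and included Gmnn, the inhibitor of Cdt1, at -1.35 ± 0.45 (adjusted p = 0.000775) and Timeless, of the fork protection complex, at -0.89 ± 0.15 (adjusted p = 0.000523). Geminin and the licensing factor it restrains were thus both lower. Centring on each array's median left 8 of the 17 subunits and 13 of the 24 factors called lower, with lower medians of -0.85 and -1.11. Without replicate 1, 15 of the 17 and 22 of the 24 were called lower, against 34.0% of all genes.

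Of 13 other deoxynucleotide genes, 6 were called lower and 2 higher, with a median of -0.30. Nme1, a nucleoside diphosphate kinase, was at -0.95 ± 0.15 (adjusted p = 0.000387). Tk2 and Dguok, the mitochondrial nucleoside kinases, ran the other way at 0.84 ± 0.18 (adjusted p = 0.000849) and 0.41 ± 0.29 (adjusted p = 0.0371). Among 21 other genes of the E2F, RB and Cdk2 circuit 12 were called lower and 0 higher, with a median of -0.53. Mybl2 at -2.45 ± 0.33 (adjusted p = 3.73e-05) and the repressive factors E2f8 at -1.74 ± 0.33 (0.000115) and E2f7 at -1.62 ± 0.54 (0.000621), all known as E2F targets, were among the lowest. Of the pocket proteins, Rb1 at -0.09 (adjusted p = 0.605) and Rbl2 at 0.29 (adjusted p = 0.0672) were not called, and Rbl1 is not reported here. Of the 21 genes, 15 were called lower and 1 higher without replicate 1, and 15 and 2 with array weights. Lower calls over all genes were 34.0% and 37.8% in those runs.

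Lower calls also extended past S phase. Of 11 other genes of replication-coupled chromatin, 10 were called lower and 0 higher, with a median of -1.33, among them the histone chaperone Asf1b at -1.76 ± 0.21 (adjusted p = 5.41e-05). Of 25 S-phase repair genes, 19 were called lower and 0 higher, with a median of -0.99, among them the nuclease Exo1 at -2.30 ± 0.67 (adjusted p = 0.000307). Mitotic genes, which act after replication, were called lower in 22 of 23 cases and higher in 0, with a median of -1.25. Kif23 at -0.46 was not called (adjusted p = 0.138). All 23 were called lower without replicate 1, with array weights or with the mean of each gene's probes, and 20 or 21 without another array. The share of all genes called lower was 34.0% without replicate 1 and 37.8% with array weights. Cdc20, Aurka and Plk1 stood at -1.63 ± 0.16, -1.63 ± 0.18 and -1.53 ± 0.18 (adjusted p = 5.38e-05, 5.68e-05 and 7.28e-05). With ratios centred on each array's median in place of loess, lower calls fell to 8 of the 11 chromatin genes, 16 of the 25 repair genes and 16 of the 23 mitotic genes, with medians of -1.55, -1.15 and -1.54. Without replicate 1, lower calls rose to 11 chromatin genes and 21 repair genes. No difference between these lists and the 38 genes was tested.

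The D cyclins, their kinases and the kinase inhibitors, which act upstream of E2F in G1, did not follow. Of 11 tested, 2 were called lower and 6 higher, with a median of 0.60. Ccnd2, a D-type cyclin, was higher at 1.86 ± 0.18 (adjusted p = 3.83e-05), as were Ccnd3 at 1.02 ± 0.33 and the inhibitors Cdkn1c at 1.33 ± 0.37 and Cdkn2b at 1.14 ± 0.09 (adjusted p = 0.00106, 0.000465 and 0.000138). The lower pair was Cdk6 at -0.98, whose other probe was not called at 0.13, and the inhibitor Cdkn1a at -0.73. The higher calls of this list numbered 3 under median centring, with a median of 0.35.

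**Figure D5:**
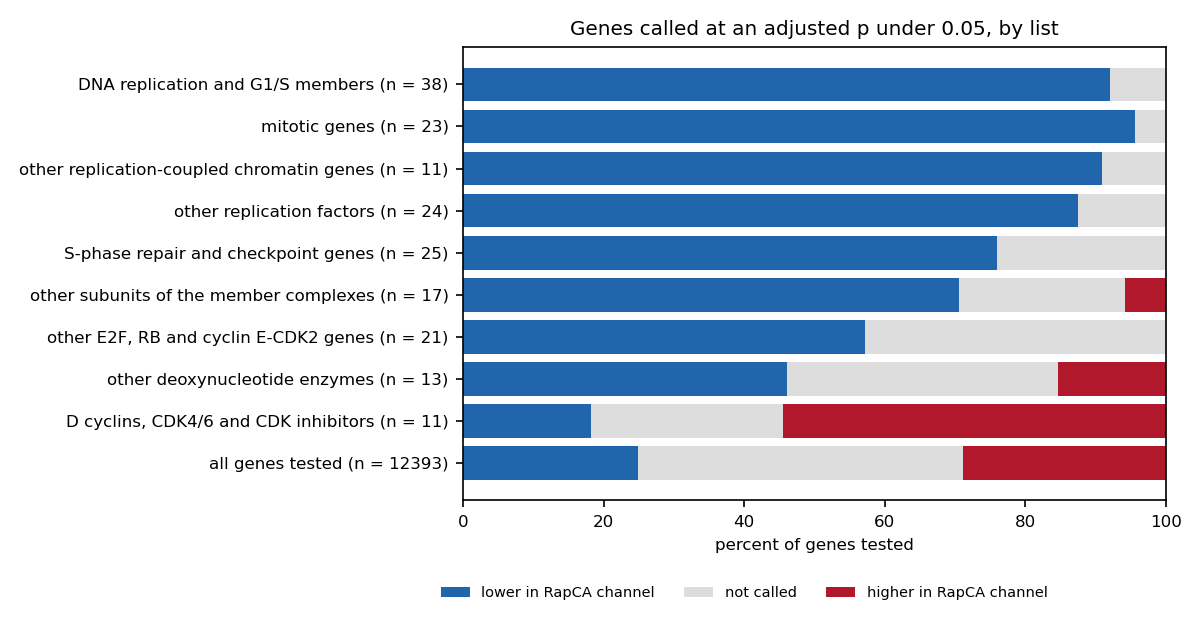
Percent of tested genes called lower, not called and called higher for the 38 genes, each of the further lists and all genes tested. The 38 genes are called lower in 35 cases and higher in 0, all genes in 24.9% and 28.9%, and the list of D cyclins, their kinases and inhibitors has 2 lower and 6 higher of 11.

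Several smooth muscle, pericyte and fibroblast markers were higher in the RapCA channel, opposite to the replication genes. Among all genes tested, 28.9% were called higher and 24.9% lower. Of 8 smooth muscle markers 6 were tested, 3 were called higher and 0 lower, among them Tagln at 2.13 and Acta2 at 0.54, while Des and Myocd were not well above background. Their median was 0.34, and -0.04 with 2 higher calls under median centring. Without replicate 1, 5 of the 6 were called higher. Of 6 fibroblast markers 5 were tested and 4 were called higher, with a median of 2.40 (1.87 under median centring). The summed intensity of the tested markers ran from 312000 to 339000 in the RapCA channel and 142000 to 193000 in the vector channel for smooth muscle, and from 335000 to 397000 against 56900 to 88100 for fibroblasts. Of 6 pericyte markers 4 were tested, 3 called higher and 1 lower, with sums of 27700 to 31500 against 9110 to 12900. Of 6 endothelial markers 3 were tested, with Vwf at -2.03 ± 0.16 and Kdr at -0.75 ± 0.40 called lower, as the replication genes were, and Tek at 1.16 ± 0.23 called higher (adjusted p = 2.66e-05, 0.00705 and 0.000294), while Pecam1, Cdh5 and Emcn were not well above background. Their summed intensity ran from 445 to 454 in the RapCA channel and from 660 to 832 in the vector channel. Of 4 epithelial markers Krt8 alone was tested and was called lower at -1.04 (adjusted p = 0.000166), or 2.05-fold. Its RapCA signal was not well above background, so the size is uncertain, and the authors' deposited ratios gave -3.67. Of the macrophage markers and of the T and B cell markers 2 each were tested and 0 were called by limma, nor at an unadjusted p below 0.05, and Ptprc, Adgre1 and Itgam were not well above background. With array weights 1 of each pair was called higher, as was 1 T and B cell marker without replicate 1. Of all genes, 5063 of 12393 were called higher with array weights and 4599 of 12392 without replicate 1. The part of these markers in the replication genes' result was not tested.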

How the data were processed

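RNA was hybridised to 4 2-colour Agilent arrays of 1 slide, with empty-vector RNA in Cy5 and RapCA RNA in Cy3, per the labels. The deposited scanner files, made with Agilent Feature Extraction 10.7.3.1 per the file headers, hold the intensity of each spot and its local background. The deposited log10 ratios of the authors, Cy5 over Cy3 as Agilent computes them, served as an alternative. Median spot intensities were background-corrected (normexp, offset 50) and loess-normalized within arrays with limma 3.58.1 in R 4.3.3, with control spots at weight 0 and outlier spots left out. Spots of a probe were averaged. Of 41174 probes, 23497 were tested, those that the scanner software marked well above background in the same channel of every array. Each was tested against 0 with lmFit and eBayes, and p-values were adjusted by Benjamini-Hochberg over all of them. Levels are log2 intensities after loess and Aquantile scaling. The test was checked on simulated data. Symbols came from RefSeq accessions (64.9% of probes), and no probe was placed on the genome. Total counts do not exist for arrays, and 4 arrays limit the precision.

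The members and lists were chosen with earlier results of these data known. Every member was described, and of each other list up to 4 genes with the smallest adjusted p called in the list's main direction, and those called the other way. Some genes that this rule names are not reported here. Rb1, Rbl2, Kif23, and the markers were singled out after their values were seen. Alternatives covered other background corrections, centring, filters, probe rules, array weights and each array left out. Motifs were searched with Python 3.11.15.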

Additional observations from a re-analysis of the deposited data

Results flagged for a closer look

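In 4 of the 38 genes, 1 array lay far from the other 3 by Dixon's test at its 95% level, where chance gives about 1 in 20. Cdc45 was least reduced on replicate 2, at -1.28, with the others between -1.61 and -1.55. Fen1 was also least reduced on replicate 2, at -1.43, with the others between -1.88 and -1.82. Pola1 was most reduced on replicate 4, at -2.81, with the others between -1.72 and -1.59. E2f1 was most reduced on replicate 1, at -1.20, with the others between -0.45 and -0.33, and it was the sole gene in which the outlying array was replicate 1. Read by their brightest probes, all 4 genes were below 0 on every array. The second E2f1 probe was above 0 on replicates 2 to 4, at 0.27 on each.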

How the results depend on the processing

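All 38 genes had a mean below 0 in every alternative run. The number called lower ran from 32 (without replicate 4) to 38 (without replicate 1), 0 were called higher in any, and 26 to 31 were at least 2-fold lower. The median ran from -1.34 to -1.12 with an array left out, and was -1.57 with median centring in place of loess, which moved the median of all genes from 0.02 to -0.17 and the share of higher among all calls from 53.7% to 38.4% (1543 genes called higher, against 3585). Array weights raised the genes called lower among all to 4689 from 3089, and leaving out arrays gave 2109 to 4216 lower and 2654 to 4599 higher. Prim1 lost its call with median centring (adjusted p = 0.148) and without the filter (0.0719), Prim2 with median centring (0.0831), Mcm6 without replicate 3 (0.0542) or 4 (0.0711), and E2f1 with the mean of its probes (0.214). Mcm4, Pole and Dut were called lower under several alternatives, among them array weights and the fit without replicate 1. The cause was not tested. Spots of low signal over background limit the smallest ratios.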
